A study of Mus musculus with 6 samples.

Results

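In all, 8 secreted or cell-surface proteins of the extracellular matrix were followed at the transcript level in 6 mouse libraries. They were the small leucine-rich proteoglycans Prelp, Dcn and Bgn, the chondroitin sulfate proteoglycans Vcan and Cspg4, the matricellular glycoproteins Sparc and Tnc, and the adhesive glycoprotein Fn1. The 8 genes were picked by name, with earlier results of the same comparison in view, so their differences between the groups are given as descriptions, without p-values, and support nothing. All 8 had a row among the 18908 gene rows of the table. The libraries were made from cells that the labels describe as bone marrow-derived macrophages (BMDM), 3 from cells given a control shRNA (genotype given as WT) and 3 from cells given an shRNA against VprBP (genotype given as VprBP1 Knockdown). The series' title names the role of VprBP in osteoclast formation as the question. An shRNA is a short hairpin used to knock down its target transcript, and VprBP, or Dcaf1, is a substrate receptor of a cullin ubiquitin ligase. Vector, time, mouse strain and age are not stated in the labels. They do not say either that libraries of 1 group are separate cultures or animals, and p-values therefore measure only how these libraries vary, possibly for technical reasons.

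Total estimated counts ranged from 16839445 to 21838875 per library, and a count of 0 in a library allowed up to 0.143 to 0.186 CPM (3 counts; counting error only). CPM stands for a gene's counts relative to the library total, scaled between libraries with TMM factors. The labels and the transcripts did not match in cell type. Of 12 macrophage markers, 9 had no row (Csf1r, Adgre1, Itgam, Spi1, Tyrobp, Aif1, Fcgr1, Cx3cr1 and C1qa), and the summed level of the other 3 was 36.1 to 39.3 CPM under the control label and 16.0 to 17.5 CPM under the VprBP label. Those 3 went opposite ways, Cd68 from 31.6 ± 1.19 to 1.01 ± 0.270 CPM, Lyz2 from 1.05 ± 0.212 to 2.51 ± 0.304 CPM and Mertk from 5.34 ± 0.738 to 13.3 ± 0.695 CPM. The 8 pigment cell markers summed to 21053 to 21432 CPM and 19634 to 20143 CPM, with 5 called higher and 3 lower by edgeR. Pmel, Mlana and Slc45a2 were 2.78-fold, 2.68-fold and 3.81-fold lower, while Tyr, Mitf, Sox10 and Dct were 3.79-fold, 3.44-fold, 3.51-fold and 1.50-fold higher and Tyrp1 1.06-fold higher. Dcaf1, the targeted gene, stood at 42.1 ± 1.42 and 35.7 ± 1.11 CPM (SD, n = 3 each), 84.9% of the control-labelled mean (log2 difference -0.24, SE 0.07, edgeR adjusted p = 0.00625; exact two-sided permutation p = 0.1, the smallest that 3 against 3 allows). With scaling by library size only, the log2 difference was -0.12 and the call was lost (edgeR adjusted p = 0.138). The groups are therefore named by their labels, and no difference is ascribed to loss of VprBP. Of 14641 genes tested with edgeR, 75.0% were called at an adjusted p below 0.05. Calls in which the VprBP-labelled libraries were higher made up 37.9% of tested genes, and calls in which they were lower 37.0%. The median log2 difference over all tested genes was -0.01.

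Matrix glycoproteins and proteoglycans form the meshwork around cells and also bind growth factors and receptors. A proteoglycan is a core protein that carries glycosaminoglycan chains, long sulfated sugars added to serines in the Golgi. Small leucine-rich proteoglycans bind collagen fibrils, and hyaluronan-binding proteoglycans such as versican fill the space between cells. Fibronectin is assembled into fibrils by integrins and carries tenascin and other ligands. SPARC, which binds collagen and calcium, is made by cells that remodel their matrix, among them pigment cells and melanoma, and CSPG4 is a membrane proteoglycan known as a melanoma antigen.

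The stretches just upstream of the start sites are shown for 4 proteoglycan genes, because Prelp and Bgn both stood higher in the VprBP-labelled libraries from very low levels, whereas of the chondroitin sulfate carriers Cspg4 stood higher and the Vcan groups overlapped. The sequences come from RefSeq on GRCm38.p6, which held promoter entries for 6 of the 8 genes, and bases in annotated exons were removed. Dcn and Fn1 had no entry. Capitals mark matches on either strand to an E-box (CANNTG), a GC box (GGGCGG) or a SOX core (ACAAAG or ACAAT). The stretches are chr1:133921415-133921651 (minus strand) for Prelp, chrX:73483351-73483600 (plus strand) for Bgn, chr13:89742513-89742762 (minus strand) for Vcan and chr9:56864854-56865032 (plus strand) for Cspg4.
Prelp: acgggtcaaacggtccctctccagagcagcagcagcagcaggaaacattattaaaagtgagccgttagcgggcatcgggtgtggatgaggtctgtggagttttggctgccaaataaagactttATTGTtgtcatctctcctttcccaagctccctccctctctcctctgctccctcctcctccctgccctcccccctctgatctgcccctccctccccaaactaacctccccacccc
Bgn: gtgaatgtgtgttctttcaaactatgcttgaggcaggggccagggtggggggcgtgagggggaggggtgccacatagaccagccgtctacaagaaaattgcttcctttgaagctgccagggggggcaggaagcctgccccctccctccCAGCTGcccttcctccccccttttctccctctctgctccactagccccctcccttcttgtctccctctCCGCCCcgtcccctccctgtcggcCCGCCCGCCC
Vcan: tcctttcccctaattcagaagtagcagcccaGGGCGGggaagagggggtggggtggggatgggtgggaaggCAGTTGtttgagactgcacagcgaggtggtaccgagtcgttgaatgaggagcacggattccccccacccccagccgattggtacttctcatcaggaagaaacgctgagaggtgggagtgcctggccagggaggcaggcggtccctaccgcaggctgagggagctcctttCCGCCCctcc
Cspg4: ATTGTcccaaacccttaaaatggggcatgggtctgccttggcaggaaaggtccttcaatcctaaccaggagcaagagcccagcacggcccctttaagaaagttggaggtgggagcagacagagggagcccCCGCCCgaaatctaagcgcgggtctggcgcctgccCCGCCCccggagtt

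None of the marked motifs occurred in both the Prelp and the Bgn stretch. Only preset patterns were searched, and other sequence that the stretches may share was not sought. Prelp held 1 SOX core and neither an E-box nor a GC box, whereas Bgn held 1 E-box and 3 GC boxes. Vcan held 1 E-box and 2 GC boxes, and Cspg4 2 GC boxes and 1 SOX core. Among all 32851 promoter entries, cut to the same 250 bases before the start, 66.2% held an E-box, 32.7% a GC box and 38.8% a SOX core. An AP-1 site (TGANTCA), present in 6.7% of entries, was found in none of the 6 genes with an entry, nor was the E-box form CATGTG, present in 12.3%. The motifs are matches of letters and do not show that a factor binds there.

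Among the small leucine-rich proteoglycans, Prelp was nearly silent in the control-labelled libraries and well expressed in the others, Bgn went from almost no counts to a low level, and Dcn went the other way. Prelp (prolargin, which anchors basement membranes to connective tissue; ENSMUSG00000041577.5, GRCm38 chromosome 1, 133910304 to 133921414, minus strand) stood at 0.860, 1.05 and 1.07 CPM in control-labelled libraries 1 to 3 and at 237, 226 and 233 CPM in VprBP-labelled libraries 1 to 3. The groups lay far apart with little spread inside either. Their means were 0.995 ± 0.117 and 232 ± 5.55 CPM (SD, n = 3), a 234-fold difference (log2 7.87, SE 0.09), resting on 53 counts in the control-labelled group. Of the tested genes, 32 differed by more in either direction. An antisense gene that shares exon sequence with it, Gm15851, held at most 11.7 counts in a library. Prelp held 4194 to 4476 counts in a VprBP-labelled library, 13075 over the group.

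Bgn (biglycan; ENSMUSG00000031375.17, chromosome X, 73483602 to 73495933, plus strand) binds collagen and carries glycosaminoglycan chains. Its level was 0.0956, 0 and 0 CPM under the control label and 1.29, 1.24 and 1.46 CPM under the VprBP label. All 3 VprBP-labelled values lay above the control-labelled ones. The control-labelled group had only 2 counts, both in library 1, and the VprBP-labelled group 75. The ratio of scaled counts was 35.9, with a 95% counting interval of 9.59 to 302. Bgn passed the filter on low counts (0.561 CPM in 3 libraries) only through the VprBP-labelled group and so had to differ.

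Dcn (decorin, which binds collagen fibrils and TGF-beta; ENSMUSG00000019929.16, chromosome 10, 97479609 to 97518143, plus strand) gave 2.87, 2.35 and 2.86 CPM under the control label and 0.969, 1.13 and 1.67 CPM under the VprBP label. It was lower in each VprBP-labelled library than in any control-labelled one. The means were 2.69 ± 0.297 and 1.26 ± 0.365 CPM, a 2.14-fold difference (log2 -1.10, SE 0.35). The VprBP-labelled group had 71 counts in all, and its coefficient of variation of 29.0% was above the 20.6% that counting alone gives.

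Of the chondroitin sulfate proteoglycans, Cspg4 was higher in the VprBP-labelled libraries and the Vcan groups overlapped. Cspg4 (the NG2 core protein, a membrane proteoglycan that also marks pericytes and oligodendrocyte precursors; ENSMUSG00000032911.6, chromosome 9, 56865033 to 56899870, plus strand) stood at 0.860, 1.05 and 1.19 CPM against 3.50, 4.05 and 4.43 CPM. The groups did not overlap. The means were 1.04 ± 0.167 and 3.99 ± 0.466 CPM, a 3.86-fold difference (log2 1.95, SE 0.31), resting on 55 and 225 counts.

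Vcan (versican, the large hyaluronan-binding core protein; ENSMUSG00000021614.16, chromosome 13, 89655312 to 89742509, minus strand) gave 2.49, 2.35 and 1.19 CPM under the control label and 0.592, 1.83 and 0.521 CPM under the VprBP label. The groups overlapped, since VprBP-labelled library 2 lay above control-labelled library 3. The log2 difference was -1.04 (SE 0.49). It was -1.84 without VprBP-labelled library 2 and between -0.72 and -1.31 without any other single library, so this library decided its size. An antisense gene inside the Vcan span, Gm4117, with no shared exon, averaged 1.34 ± 0.468 and 0.920 ± 0.358 CPM, beside 2.01 ± 0.711 and 0.983 ± 0.739 CPM for Vcan.

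Among the glycoproteins, Sparc and Fn1 were abundant and precisely measured, and both were higher in the VprBP-labelled libraries. Sparc (ENSMUSG00000018593.13, chromosome 11, 55394500 to 55423183, minus strand) stood at 1910.3, 1856 and 1940.4 CPM under the control label and 4412, 4345 and 4424 CPM under the VprBP label. Every VprBP-labelled value lay well above every control-labelled one. The means were 1902 ± 42.7 and 4394 ± 42.2 CPM, a 2.31-fold difference (log2 1.21, SE 0.03), with 102490 and 247374 counts behind them. Of 13854 genes with a coding transcript length, Sparc ranked 44th under the control label and 14th under the VprBP label by level per kilobase.

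Fn1 (fibronectin; ENSMUSG00000026193.15, chromosome 1, 71585520 to 71653200, minus strand) stood at 446, 455 and 436 CPM against 1397, 1364 and 1331 CPM. Its groups were far apart, with coefficients of variation of 2.17% and 2.43%. The means were 446 ± 9.65 and 1364 ± 33.1 CPM, a 3.06-fold difference (log2 1.61, SE 0.04). Its rank per kilobase went from 1134 to 292. The antisense gene Apol7d, which shares exon sequence with Fn1, held at most 61.9 counts in a library. Gene-level counts do not separate splice forms, so the alternatively spliced segments of Fn1, Tnc and Vcan were not examined.

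Tnc (tenascin C, a glycoprotein of embryonic and injured tissue that binds fibronectin; ENSMUSG00000028364.15, chromosome 4, 63959785 to 64047015, minus strand) was scarce in every library. Its level was 0, 0.186 and 0 CPM under the control label and 1.18, 0.701 and 0.417 CPM under the VprBP label. The groups did not overlap, with 3 counts in all against 43. The ratio of scaled counts was 13.7 with a 95% counting interval of 4.39 to 69.1. Tnc reached the filter level in 2 VprBP-labelled libraries only and was not tested.

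**Figure D1:**
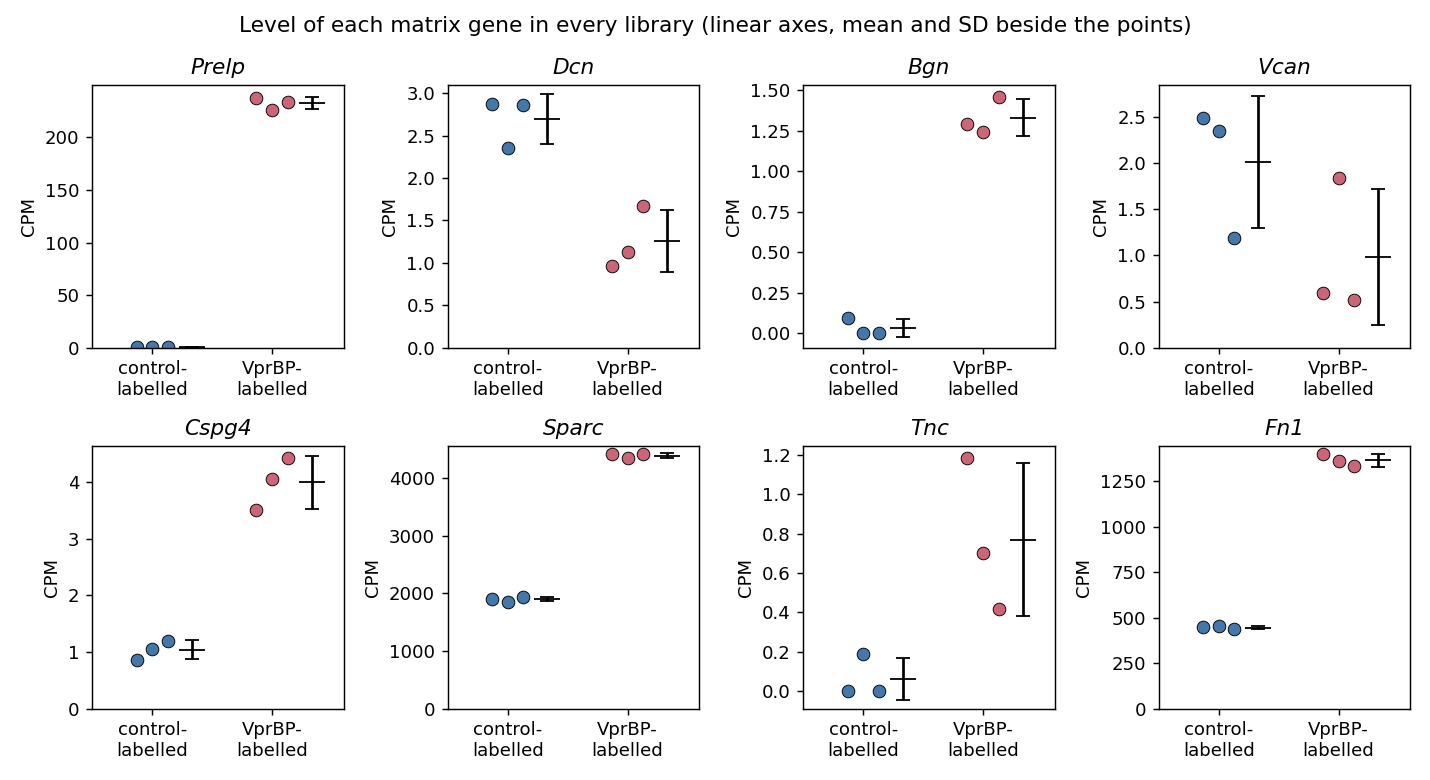
Level of each of the 8 matrix genes in CPM (linear axes that differ between panels) in each of the 6 libraries by label, 3 per group, with the mean and SD beside the points. Prelp goes from 0.995 to 232 CPM and the groups overlap for Vcan alone.

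Counted together, 7 of the 8 genes passed the filter. By the threshold used for all genes, 5 of them fell among the higher calls, Bgn included, 1 among the lower (Dcn) and 1 in neither (Vcan), beside 75.0% called over all tested genes. This count is a description and nothing is read from it, as the genes were chosen on this contrast. Groups did not overlap for 6 of the 7 tested genes, beside 77.2% of all tested genes. The genes on mitochondrial DNA took 8.65% to 9.48% of the counts under the control label and 4.89% to 5.56% under the VprBP label. With mitochondrial genes left out, the log2 differences were 1.20 for Sparc, 1.61 for Fn1, 7.87 for Prelp and 1.95 for Cspg4.

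Compared per kilobase of the longest coding transcript, the 8 genes covered several orders of magnitude. In the control-labelled libraries the order was Sparc (827 ± 18.5 CPM per kilobase), Fn1 (53.6 ± 1.16), Dcn (1.53 ± 0.169), Prelp (0.275 ± 0.0324), Vcan (0.162 ± 0.0572), Cspg4 (0.127 ± 0.0205), Bgn (0.0132 ± 0.0228) and Tnc (0.00871 ± 0.0151). Vcan and Cspg4 did not differ beyond their spread, nor did Bgn and Tnc. In the VprBP-labelled libraries Prelp stood at 64.2 ± 1.53 CPM per kilobase, behind Sparc at 1910.3 ± 18.4 and Fn1 at 164 ± 3.98. Dcn (0.715 ± 0.207), Bgn (0.550 ± 0.0470) and Cspg4 (0.492 ± 0.0574) followed without clear order, then Tnc (0.108 ± 0.0547) and Vcan (0.0791 ± 0.0594), which overlapped. With the length of all annotated exons in place of the longest coding transcript, Cspg4 came before Bgn and Dcn in the VprBP-labelled libraries, and Tnc before Bgn in the control-labelled ones.

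**Figure D2:**
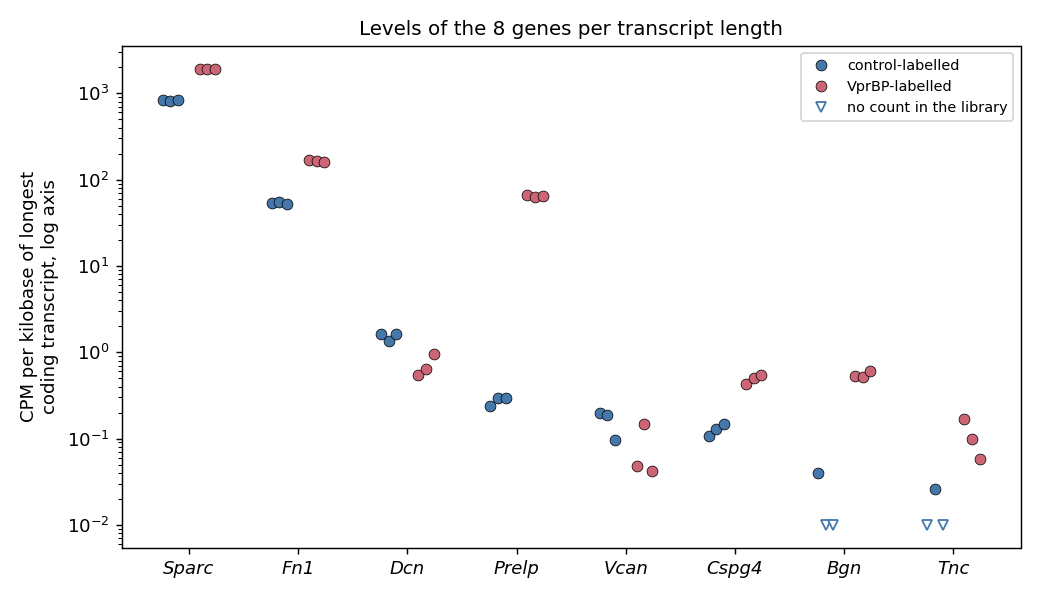
Level of the 8 genes in CPM per kilobase of the longest coding transcript (log axis) in each library, ordered by the control-labelled mean, with open triangles for libraries without a count. Sparc and Fn1 lie well above the others in both groups, and Prelp joins them in the VprBP-labelled libraries.

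Sparc and Fn1 held 99.7% ± 0.0215 of the counts of the 8 genes under the control label and 96.0% ± 0.0464 under the VprBP label. The summed level of the 8 was 2355 ± 33.1 and 5998 ± 54.9 CPM, and that of the 6 others 6.83 ± 0.448 and 241 ± 4.87 CPM, the latter mostly Prelp. Per kilobase, Sparc stood 15.5, 14.8 and 16.1 times above Fn1 under the control label and 11.4, 11.5 and 12.0 times above it under the VprBP label. The ratio was thus lower in each VprBP-labelled library, Fn1 having the larger fold.

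For each tested gene, the nearest profiles were sought among 9423 protein-coding genes averaging 10 CPM or more, by the root mean square distance of centred log2 CPM (prior count of 2) over the 6 libraries. The libraries fall into 2 labelled groups, so likeness mostly means a difference of like size. Dusp19 was among the 2 nearest to Sparc (distance 0.0177 log2 units), and Myh9, a non-muscle myosin heavy chain, and Jam2 were nearest to Fn1 (0.0150 and 0.0290). Lgi4 and Clca3a1 were nearest to Prelp (0.115 and 0.201), Capn6 and Tle6 to Cspg4 (0.0663 and 0.0685), and Postn, another matrix protein, and Ncaph to Bgn (0.0794 and 0.138). Dcn had Rpusd3 and Tnip2 (0.127 and 0.137), while Vcan had Gas8 and Ppwd1 at much larger distances (0.398 and 0.439). The prior count draws genes with few counts, such as Bgn, toward no difference.

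Other genes of the matrix, listed by function, were then counted in the same edgeR fit. The lists too were drawn up with earlier results of these data known, so their counts are descriptions and no independent support. Over the 9 lists, 164 genes were named, of which 131 had a row and 118 passed the filter. Higher calls numbered 89 and lower calls 14, and 15 genes were not called, so 87.3% were called, beside 75.0% of all tested genes. The split was 75.4% higher and 11.9% lower, beside 37.9% and 37.0% of all tested genes. The median log2 difference of the 118 was 1.29, beside -0.01 overall. Of the 118, 12 reached the filter level in 1 group only, as Bgn did, beside 5.06% of all tested genes, so their entry favoured a difference. Among the other 106, 80 were called higher, 12 lower and 14 not (86.8% called, median 1.24), beside 73.9% of all genes so restricted. All adjusted p-values below are from edgeR's quasi-likelihood test with Benjamini-Hochberg adjustment over all tested genes, and fold differences come from the same fit. Markers of several cell types and the mitochondrial share moved with the labels alongside these lists, and their part was not tested. Bulk RNA cannot tell fewer cells of a type from less RNA per cell.

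**Figure D3:**
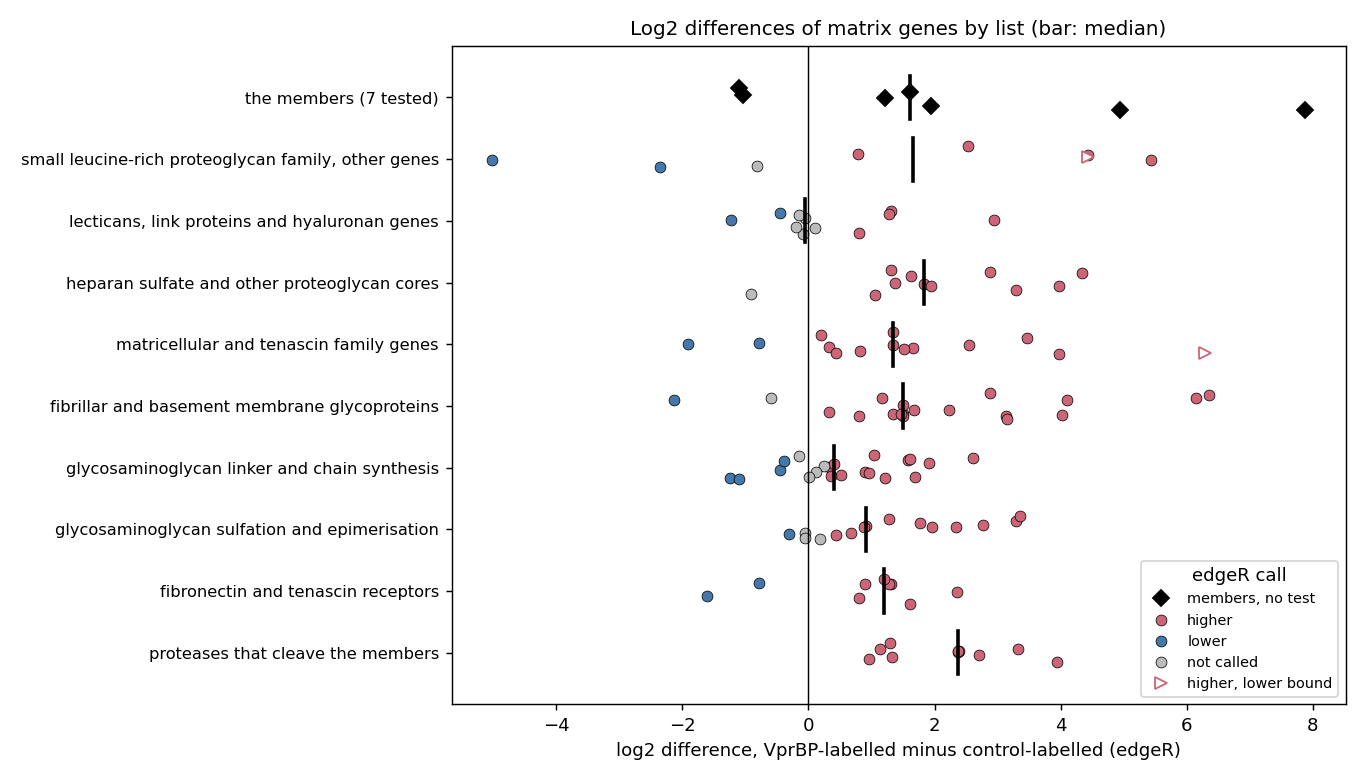
Log2 difference (VprBP-labelled minus control-labelled) of each tested gene by list, colored by edgeR call, with the list median as a bar. Black diamonds are the members, shown without a test, and open triangles are lower bounds for genes without a count in the control-labelled libraries. Most points lie to the right of 0, with the lecticans and hyaluronan genes centred near it.

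The other small leucine-rich proteoglycans were mostly scarce, and little of their count can be read. Of 14 genes, 10 had a row and 8 were tested, with calls of 5 higher and 2 lower and 1 gene without a call. Thus 87.5% were called, beside 75.0% of all tested genes. Of those 7 calls, 5 (Fmod, Ogn, Podnl1, Nyx and Ecm2) were genes that passed the filter through 1 group only. The other 3 tested genes gave 2 higher calls, Optc and Tsku, and 1 without a call. Optc (opticin, of the eye's vitreous) rose 5.76-fold from 1.20 ± 0.180 to 6.97 ± 0.870 CPM (adjusted p = 4.7e-08). Ogn (osteoglycin), tested only through its VprBP-labelled level, stood at 0.102 ± 0.129 and 4.32 ± 0.156 CPM, with 5 counts behind the lower value. Tsku (tsukushi, an inhibitor of growth factor signalling) rose 1.72-fold from 13.1 ± 1.85 to 22.4 ± 1.63 CPM (adjusted p = 1.08e-05). Fmod (fibromodulin) had no count in the control-labelled libraries and 68 in the others, at least 21.7-fold higher against 3 counts over the group. Fmod, Podnl1 and the 2 with lower calls lie below the rule's mean level and were named after their values were seen. The lower ones, Nyx and Ecm2, had 42 and 65 counts in the control-labelled libraries against 1 and 13. With a filter of at least 1 CPM in 3 libraries, 3 were called higher and 0 lower, since fewer were tested. Omd, Kera, Epyc and Aspn had no row, and Lum, the neighbour of Dcn, had 10 counts in all.

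Genes for the partners of versican and for hyaluronan did not move as a body. Of 16, 11 were tested, of which 4 rose, 2 fell and 5 were not called (median -0.05). Thus 54.5% were called, beside 75.0% of all tested genes. The higher calls numbered 3 with the replicate number as a block. Bcan (brevican, another hyaluronan-binding core protein) rose 7.72-fold from 16.4 ± 1.82 to 127 ± 9.19 CPM (adjusted p = 7.21e-16), and Hapln1, the link protein that ties such cores to hyaluronan, 2.49-fold from 11.6 ± 1.64 to 28.9 ± 1.83 CPM (adjusted p = 5.83e-09). Cemip2, a cell-surface hyaluronan-degrading protein, rose 1.74-fold (adjusted p = 7.15e-09). Hyal1, a lysosomal hyaluronidase, fell 2.33-fold from 40.5 ± 1.09 to 17.4 ± 1.70 CPM (adjusted p = 6.33e-10). Cd44, the main hyaluronan receptor, fell 1.36-fold from 307 ± 3.57 to 225 ± 9.17 CPM (adjusted p = 5.11e-08). Of the hyaluronan synthases, named after their values were seen, Has2 stood at 1.03 ± 0.445 and 1.10 ± 0.284 CPM and Has3 at 1.45 ± 0.271 and 1.32 ± 0.123 CPM, neither called. Has1 passed the filter through the VprBP-labelled libraries only and stood at 0.353 ± 0.191 and 0.889 ± 0.273 CPM. Its call (adjusted p = 0.0431) was lost with the block (adjusted p = 0.0604) and without any one library other than control-labelled library 1 (adjusted p of 0.0508 to 0.194).

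Heparan sulfate and other proteoglycan cores stood higher under the VprBP label. All 11 genes of this list with a row were tested, 10 rose and 1, Spock2, was not called (named after its value was seen). Thus 90.9% were called, beside 75.0% of all tested genes, with a median of 1.83. Hspg2 (perlecan, of basement membranes) rose 9.76-fold from 152 ± 7.78 to 1485 ± 85.6 CPM (adjusted p = 4.56e-19). Sdc3, a syndecan of neural tissue, rose 20.3-fold from 3.86 ± 0.407 to 78.7 ± 3.75 CPM (adjusted p = 3.95e-17), and the glypican Gpc6 15.6-fold from 4.76 ± 0.411 to 74.9 ± 3.85 CPM (adjusted p = 9.58e-17). The summed level of the list was 1053 to 1094 CPM under the control label and 4178 to 4590.4 CPM under the VprBP label. Srgn, the proteoglycan of blood cell granules, had no row.

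Matricellular and tenascin family genes, the relatives of Sparc and Tnc, mostly rose, while Ccn1, the most abundant in the control-labelled libraries, fell. All 14 tested genes were called, 12 higher and 2 lower (median 1.34), beside 75.0% called over all tested genes. Among them, 1 reached the filter level in 1 group only, and the other 13 gave 11 higher and 2 lower calls. Sparcl1, the closest relative of Sparc here, rose 5.81-fold from 24.6 ± 2.03 to 143 ± 4.55 CPM (adjusted p = 3.41e-16), and Fstl1, another protein with a SPARC-like domain, 2.53-fold (adjusted p = 9.11e-13). Postn (periostin) rose 11.1-fold from 3.09 ± 1.14 to 35.0 ± 3.05 CPM (adjusted p = 1.5e-12). Tgfbi, named after its values were seen, had no count in the control-labelled libraries and 246 in the others, at least 78.4-fold higher. Ccn1, an integrin ligand induced by growth factors, fell 3.76-fold from 554 ± 1.50 to 147 ± 8.03 CPM (adjusted p = 1.29e-16), and Smoc1, which has a SPARC-like domain too, 1.73-fold (adjusted p = 0.000195). The summed level therefore went against the count, from 859 to 865 CPM under the control label to 788 to 799 CPM under the VprBP label. The tenascin genes Tnn and Tnr had no row.

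Fibrillar and basement membrane glycoproteins were mostly higher among the genes that could be tested. Of 28 listed, 22 had a row and 19 were tested. Of these 19, 17 rose, 1 (Nid1) fell and 1 was not called (median 1.50). Thus 94.7% were called, beside 75.0% of all tested genes. The filter level was reached in 1 group only for 2 of the 17 that rose, so their entry favoured a difference. Without these 2, 15 of 17 tested genes were called higher. Matn2, an adaptor of matrix filaments, rose 16.3-fold from 9.56 ± 1.12 to 157 ± 1.99 CPM (adjusted p = 3.62e-18) and Fbln2 (fibulin) 70.9-fold from 1.23 ± 0.468 to 89.9 ± 3.47 CPM (adjusted p = 2.65e-17). The nidogens, which link laminin to collagen in basement membranes, moved in opposite directions. Nid2 rose 7.33-fold from 9.80 ± 0.501 to 71.7 ± 1.33 CPM (adjusted p = 7.21e-16), and Nid1 fell 4.38-fold from 30.3 ± 0.592 to 6.91 ± 0.305 CPM (adjusted p = 2.6e-12).

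The enzymes that build the sugar chains included genes that rose and genes that fell. Of 21 tested genes for the linker and the chains, 13 rose, 4 fell and 4 were not called (median 0.40). The share called was 81.0%, near the 75.0% of all tested genes. Ext2, a subunit of the heparan sulfate polymerase, rose 2.98-fold from 88.6 ± 2.13 to 264 ± 12.9 CPM (adjusted p = 6.01e-15). Chsy3, a chondroitin polymerase, rose 2.31-fold from 105 ± 5.06 to 243 ± 3.76 CPM (adjusted p = 1.48e-13), and Xylt1, which starts the linker on the core protein, 6.10-fold from 5.33 ± 0.709 to 32.3 ± 2.59 CPM (adjusted p = 1.19e-12). Steps of the same route fell. B4galt7, which adds the next sugar of the linker, fell 2.37-fold from 94.9 ± 1.74 to 40.0 ± 4.94 CPM (adjusted p = 4.96e-11). Csgalnact2, which starts the chondroitin chain, fell 2.15-fold (adjusted p = 1.28e-11) and Chpf2, a chondroitin polymerising factor, 1.31-fold (adjusted p = 4.18e-05).

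Of 15 tested genes for sulfation and epimerisation of the chains, 11 rose, 1 fell and 3 were not called (median 0.91). Among them, 1 reached the filter level in 1 group only, and the other 14 gave 10 higher calls, 1 lower and 3 without a call. Sulf2, an extracellular enzyme that trims sulfate from heparan sulfate, rose 6.79-fold from 43.0 ± 2.86 to 292 ± 4.97 CPM (adjusted p = 9.81e-18). The sulfotransferases Chst12 and Chst14, which act on chondroitin and dermatan sulfate, rose 10.2-fold and 3.89-fold (adjusted p = 2.72e-13 and 5.1e-13). The sulfotransferase Ndst2 fell 1.23-fold (adjusted p = 0.00521) and was not called with scaling by library size only.

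**Figure D4:**
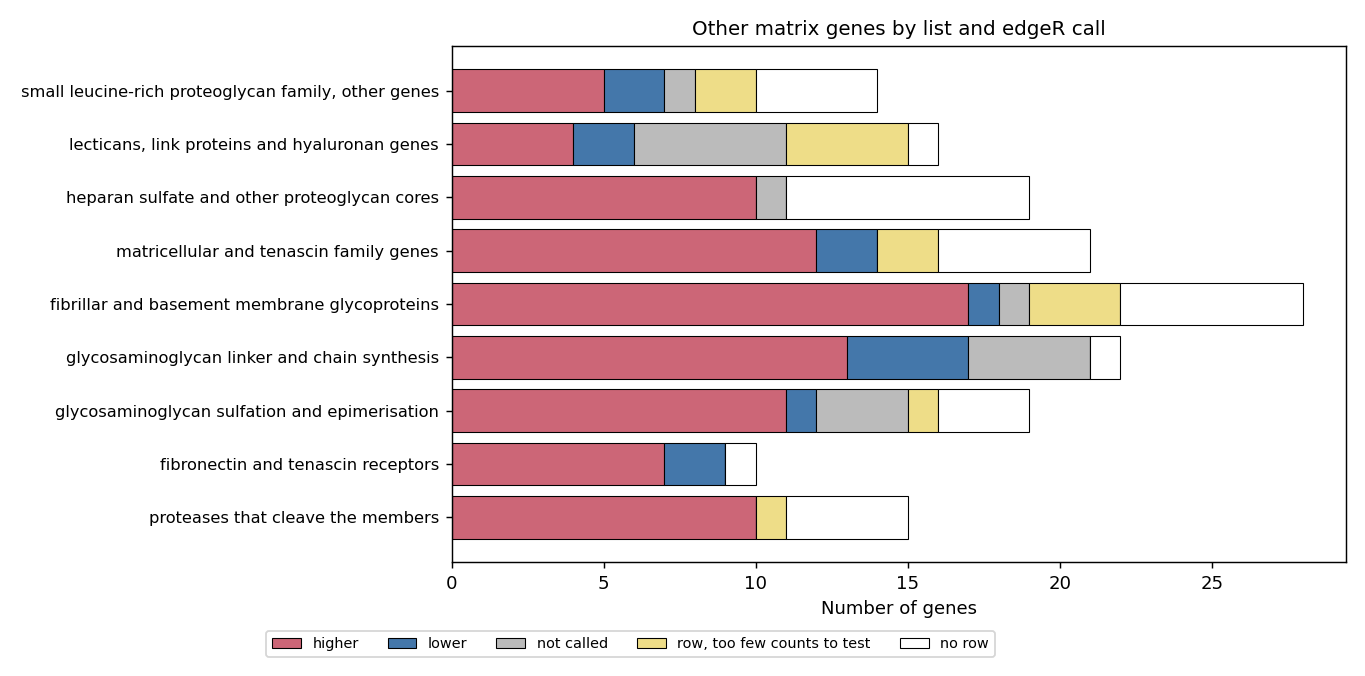
Number of genes in each of the 9 lists that were called higher, called lower or not called by edgeR, had a row with too few counts to be tested, or had no row. The fibrillar and basement membrane list has the most higher calls (17), and the protease list has 10 higher and 0 lower. Of these higher calls, 2 and 1 are genes that reached the filter level in 1 group only.

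The 9 tested receptors were integrin chains that bind fibronectin or tenascin and, besides these, Stab1, a receptor of SPARC. All were called, 7 higher and 2 lower (median 1.19), beside 75.0% called over all tested genes. Itga4 rose 5.12-fold from 44.1 ± 3.53 to 226 ± 10.3 CPM (adjusted p = 3.3e-16), Itgav 2.42-fold (adjusted p = 1.8e-14) and Itgb1, the beta chain they share with other integrins, 2.28-fold from 509 ± 16.2 to 1162 ± 56.5 CPM (adjusted p = 3.14e-14). Itga5, the alpha chain of the classical fibronectin receptor, fell 1.72-fold from 351 ± 8.64 to 204 ± 2.49 CPM (adjusted p = 9.34e-12), while its ligand gene Fn1 stood 3.06-fold higher. Stab1, a scavenger receptor that takes up SPARC, fell 3.04-fold from 4.98 ± 0.491 to 1.64 ± 0.456 CPM (adjusted p = 4.34e-05).

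Genes of proteases that act on these matrix proteins rose in all 10 tested cases (median 2.37), beside 37.9% of all tested genes called higher. Of the 10, 1 reached the filter level in 1 group only, so its entry favoured a difference. The other 9 were all called higher. Adamts4, a protease of the large hyaluronan-binding cores, rose 10.1-fold from 26.7 ± 1.36 to 268 ± 8.73 CPM (adjusted p = 1.43e-18). Adamts1, which cleaves versican, rose 2.46-fold from 566 ± 13.1 to 1394 ± 6.45 CPM (adjusted p = 1.03e-15), and the gelatinase Mmp2 6.52-fold from 19.5 ± 1.10 to 128 ± 1.70 CPM (adjusted p = 9.58e-17). Adamts8, Adamts15, Mmp3 and Mmp7 had no row, and Htra1 had too few counts to be tested.

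Several cell types are known for making these proteins, and their markers were read beside the 8 genes. The 5 of 8 fibroblast markers with a row summed to 24.6 to 26.7 CPM under the control label and 326 to 376 CPM under the VprBP label, most of it Col1a1. Col1a2, Thy1 and Dpt had no row and Lum and Col3a1 no count in the control-labelled libraries. Of 7 mural cell markers, 5 had a row and summed to 25.8 to 28.5 and 59.1 to 67.7 CPM. Most of it was Pdgfrb (21.3 ± 1.21 and 42.8 ± 5.15 CPM) and Des (5.69 ± 0.304 and 19.2 ± 2.15 CPM). Rgs5 and Acta2 had no count in the control-labelled libraries and few in the others. Myh11 did not rise (0.403 ± 0.299 and 0.301 ± 0.104 CPM), and Kcnj8 and Abcc9 had no row. The 7 of 8 Schwann cell markers with a row summed to 55.8 to 60.6 and 1012 to 1089 CPM, mostly Mbp (20.6 ± 0.752 and 694 ± 35.6 CPM), while Egr2 was called lower (edgeR adjusted p = 0.0450). Chondrocyte markers (5 of 6) summed to 11.1 to 15.3 and 42.4 to 51.7 CPM, mostly Col2a1 under the VprBP label, while Sox9 was called lower (9.03 ± 0.398 and 5.82 ± 0.326 CPM, edgeR adjusted p = 0.00152) and Acan stood at 0.306 ± 0.113 and 0.215 ± 0.235 CPM. For the osteoblast markers (3 of 6, Sp7, Runx2 and Alpl) the sums were 6.21 to 6.68 and 19.7 to 20.9 CPM. Bglap, Ibsp and Dmp1 had no row. For oligodendrocyte precursors, Pdgfra and Sox10, which other cell types share, had a row and summed to 143 to 162 and 520.4 to 580.5 CPM, and Olig1, Olig2 and Ptprz1 had none. Endothelial markers (2 of 6) summed to at most 0.669 CPM in any library, and bone marrow stromal markers (2 of 4) summed to 10.4 to 10.9 and 8.13 to 9.82 CPM. The Schwann cell, fibroblast, mural, chondrocyte, osteoblast and oligodendrocyte precursor sums were thus higher in the same libraries as Prelp, Bgn, Sparc, Fn1 and Cspg4. The part of these cell types in those differences was not tested.

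**Figure D5:**
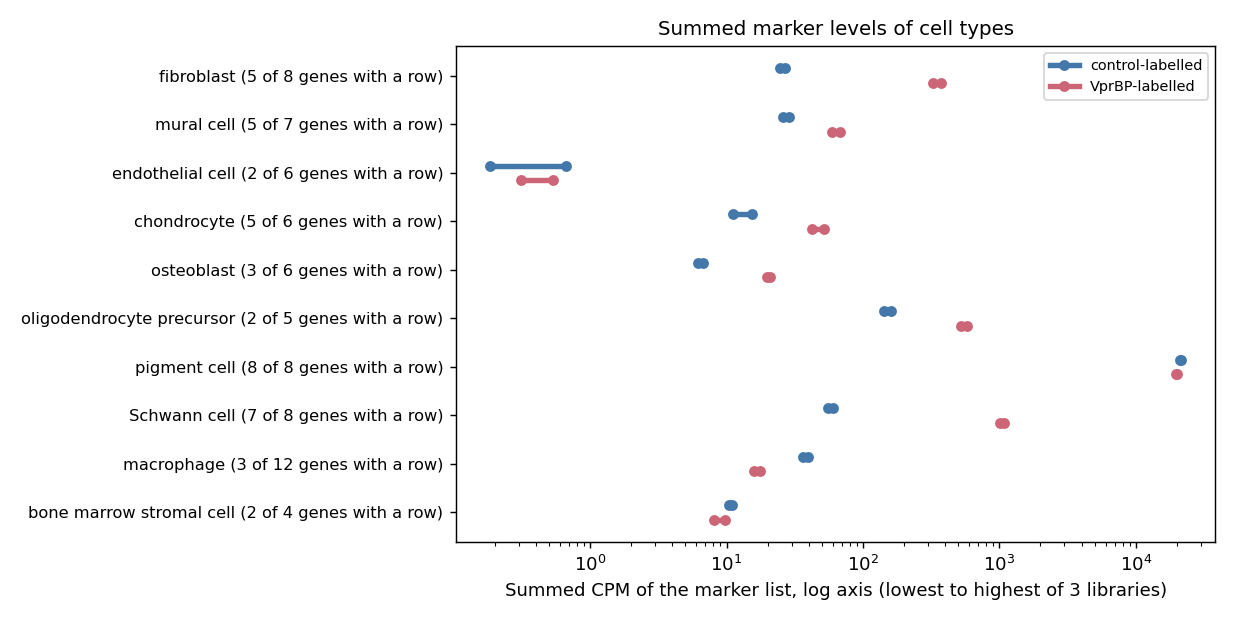
Summed CPM of the markers of 10 cell types (log axis), from the lowest to the highest of the 3 libraries of each group. The pigment cell sum lies between 19634 and 21432 CPM in all libraries although 3 of its 8 genes were called lower and 5 higher, and the Schwann cell sum goes from at most 60.6 to at least 1012 CPM.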

How the data were processed

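Per the labels' protocols, total RNA of 6 samples went into an mRNA library kit. The authors deposited unscaled estimated counts per gene. Partek and mm10 are named in the submitters' processing notes. Not given in the sources used here were aligner, counter, strand setting and annotation. In each library, 62.1% to 64.5% of values were whole within 0.001. Reads shared among genes make near-identical copies uncertain. Of the 18908 gene IDs, 97.8% matched GENCODE M21 (GRCm38) with the same coordinates. The lowest total of a row was 10 counts.

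Rounded counts entered edgeR 4.0.16 under R 4.3.3 (quasi-likelihood test, TMM scaling, filterByExpr, group as the only term), after the procedure was tested on simulated data. In the simulation few genes were changed, equally up and down, and none with few counts. It therefore does not check the fit where most genes are called or counts are few. Genes were called at an adjusted p below 0.05. The members and the lists were chosen with earlier results of these data known. Named genes were the members, Dcaf1, up to 3 higher and 3 lower per list by smallest p with a mean of at least 1 CPM, any member needed to give a direction, and the 2 nearest profiles per member, of which 1 is not reported here. Alternatives were other scalings (DESeq2 1.42.0 size factors among them), other filters, DESeq2, limma 3.58.1 with voom, a replicate block and leaving out each library. Libraries that share a number did not deviate together (correlations of -0.0422 to 0.00664), so the numbers were not taken as pairs. No 2 libraries held identical counts.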

Additional observations from a re-analysis of the deposited data

How the results depend on the processing

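The log2 differences of the tested members, their median and that of Dcaf1 kept their sign under every alternative run. The list results were followed as counts of calls. The near-even split over all tested genes did turn, from 5552 higher and 5422 lower calls to 5409 and 5563 with upper quartile scaling. With at least 1 CPM in 3 libraries it was 5305 and 5328. When libraries were scaled by size alone, the median log2 difference over all genes shifted by 0.12, from -0.01 to 0.10. There Dcaf1 differed by -0.12 (edgeR adjusted p = 0.138) and was no longer called, Sparc differed by 1.32 and Fn1 by 1.73, and 0 sulfation and epimerisation genes were called lower. With at least 1 CPM in 3 libraries, 3 small leucine-rich proteoglycan genes were called higher and 0 lower, as fewer were tested. Leaving out control-labelled library 1 removed every control-labelled count of Bgn and moved its fitted log2 difference from 4.94 to 7.58, which is no bound. Leaving out single libraries gave -0.93 to -1.35 for Dcn. With the replicate number as a block, 10649 genes of the table and 102 list genes were called, against 10974 and 103 without the block, and 10621 genes were called in both fits. The libraries share only a number, and the cause of the change was not tested. Leaving out mitochondrial genes was added after the data were seen. Depth limits Bgn, Tnc, Dcn and Vcan, which had 2 to 146 counts per group. It also limits the control-labelled levels of Prelp and Cspg4, with 53 and 55 counts.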

Other observations

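The genes beside the 8 members on the chromosome were also read, a choice made after the values were seen. Of 16 protein-coding genes with a row within 100 kb of a member, 13 were tested, 6 were called higher, 3 lower and 4 were not called, so 69.2% were called, beside 75.0% of all tested genes. Optc, 2304 bases from Prelp on the same strand and of the same protein family, rose 5.76-fold (edgeR adjusted p = 4.7e-08), far less than Prelp. Beside Cspg4, Odf3l1, at 353 bases on the opposite strand, rose 7.54-fold from 2.01 ± 0.450 to 15.0 ± 1.13 CPM (edgeR adjusted p = 8.79e-11), and Snx33, a sorting nexin gene 17322 bases away, fell 2.81-fold from 135 ± 4.72 to 48.0 ± 1.05 CPM (edgeR adjusted p = 4.08e-14). Hapln1, the link protein gene 43659 bases from Vcan on the opposite strand, rose 2.49-fold (edgeR adjusted p = 5.83e-09), while the groups of Vcan itself overlapped. Atic, 5888 bases from Fn1, stood at 53.8 ± 2.86 and 58.7 ± 6.26 CPM and was not called. Near Sparc, Atox1, a copper chaperone, rose 1.24-fold and Fat2, a large cadherin, fell 1.88-fold (edgeR adjusted p = 0.00337 and 0.000193).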
